A study of Mus musculus with 29 samples.

Results

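Mitochondrial ribosomal protein genes were followed across microglial translating-ribosome libraries from mouse cortex. All gene names of the count table that begin with Mrpl or Mrps and a digit were taken, and names ending in -ps (pseudogenes) were left out. This gave 71 of the 22327 genes in the table, 45 for proteins of the large subunit and 26 for the small subunit by name. Mrps18a and Mrps30 were counted with the large subunit, where their proteins sit. The study isolated mRNA bound to ribosomes that carry an eGFP-tagged L10a protein (translating ribosome affinity purification, TRAP) and sequenced it. It asked how the integrated stress response, in which phosphorylated eIF2alpha lowers protein synthesis, changes microglia. There were 29 libraries in 7 groups and 2 labelled batches, and the series text gives the group sizes as numbers of mice. No label ties a library to its own mouse, so p-values measure only the spread between these samples.

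Every mouse carried Cx3cr1CreErt2/+, a tamoxifen-inducible Cre that is active in microglia and also in other Cx3cr1-expressing macrophages. Each mouse was 6 months old and had received 6 doses of tamoxifen at 100 mg/kg. The TRAP group (n = 5, 4 from batch 1 and 1 from batch 2) carried the plain tag Eef1a1LSL.eGFPL10a/+ and had no further treatment. The 5xFAD_TRAP group (n = 4, 2 from each batch) added 5xFAD, a transgene set that gives amyloid plaques, and received VEGF at 1 ug/kg with ASV at 5 mg/kg over 4 weeks. The Eif2A group (n = 4, all batch 1) and the 5xFAD_Eif2A group (n = 3, all batch 1) carried Eif2s1A/A with the Tg(Eif2s1) transgene, without and with 5xFAD, and had neither VEGF nor ASV. Their sample labels list the plain tag, whereas the series text leaves it out of their genotype. The iPKR_vehicle (n = 4, 2 from each batch), iPKR_ASV (n = 5, 3 from batch 1 and 2 from batch 2) and 5xFAD_iPKR (n = 4, 2 from each batch) groups carried Eef1a1LSL.NS3.eGFPL10a.iPKR/+ in place of the plain tag. The iPKR_vehicle mice received VEGF with PEG:DMSO, and the other 2 iPKR groups received VEGF with ASV. A comparison of iPKR_vehicle with TRAP therefore spans the construct and the VEGF/vehicle course together.

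The mitochondrial ribosome translates the few mRNAs that mitochondria still encode, all of them for subunits of the oxidative phosphorylation complexes. Its rRNAs come from mitochondrial DNA, but its proteins are encoded in the nucleus, translated on cytosolic ribosomes and imported, so their mRNAs can be caught by a tag on the cytosolic ribosome. Some of the proteins have counterparts in bacterial ribosomes and others are found only in mitochondria. Mrps36 is an exception in function, since its product is also known as a component of the oxoglutarate dehydrogenase complex.

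Promoter sequences were found for 63 of the 71 genes in RefSeq (GRCm38.p6), with 67 promoters in all. The 250 bases before the RefSeq start of 4 genes are shown because these genes led the comparisons. Mrps15 (chr4:126046678-126046927, plus strand) had the smallest p among the genes that were lower in iPKR_vehicle than in TRAP. Mrps5 (chr2:127587176-127587425, plus strand) was the gene that rose in that comparison. Mrps21 (chr3:95871515-95871764, minus strand) had the smallest p between batches in the iPKR groups, and Mrps18c (chr5:100798509-100798758, plus strand) had the smallest p of the Eif2A comparison. GENCODE places the start of Mrps5 at 127587222 and that of Mrps18c at 100798627, inside the stretches shown, so part of each lies within the gene by that annotation. The GENCODE starts of Mrps15 (126046925) and Mrps21 (95871519) also lie inside their stretches, only a few bases from the end next to the gene. Capitals mark a match to a motif of NRF1 or of ETS factors, both known regulators of nuclear genes for mitochondrial proteins.
Mrps15: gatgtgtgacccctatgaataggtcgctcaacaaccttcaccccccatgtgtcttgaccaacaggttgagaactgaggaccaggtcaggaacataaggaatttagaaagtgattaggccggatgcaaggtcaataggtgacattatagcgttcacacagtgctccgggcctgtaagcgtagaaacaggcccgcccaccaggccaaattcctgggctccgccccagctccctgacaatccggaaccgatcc
Mrps5: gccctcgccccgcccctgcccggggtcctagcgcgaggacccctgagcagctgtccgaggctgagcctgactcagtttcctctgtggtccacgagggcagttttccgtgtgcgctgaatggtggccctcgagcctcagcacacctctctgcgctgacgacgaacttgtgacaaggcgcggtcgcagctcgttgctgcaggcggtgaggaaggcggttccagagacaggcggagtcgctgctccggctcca
Mrps21: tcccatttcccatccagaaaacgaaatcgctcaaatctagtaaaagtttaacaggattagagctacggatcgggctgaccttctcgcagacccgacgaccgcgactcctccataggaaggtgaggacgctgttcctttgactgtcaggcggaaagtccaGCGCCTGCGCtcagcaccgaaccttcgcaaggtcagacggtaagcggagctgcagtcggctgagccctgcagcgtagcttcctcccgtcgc
Mrps18c: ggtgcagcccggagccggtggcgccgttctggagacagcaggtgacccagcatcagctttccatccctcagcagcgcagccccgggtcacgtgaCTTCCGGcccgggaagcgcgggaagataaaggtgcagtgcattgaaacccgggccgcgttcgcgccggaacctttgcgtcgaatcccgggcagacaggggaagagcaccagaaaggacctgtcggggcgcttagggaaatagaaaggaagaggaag
The NRF1 motif (GCGCA, any base, then GCGC) stood on the opposite strand at positions -91 to -82 from the Mrps21 start. The ETS motif (CCGGAAG) stood on the opposite strand at positions -156 to -150 from the Mrps18c start. The stretches of Mrps15 and Mrps5 held no match to either motif or to the YY1 motif (AAGATGGCG).

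Both strands of each promoter (250 bases before to 50 after the start) were searched for each motif separately, so matches of different motifs may overlap. The NRF1 motif was in 12 of the 67 promoters (17.9%) and in 4.6% of all 32851 promoters. The ETS motif was in 22 of 67 (32.8%) and in 8.86% of all, and the YY1 motif was in 8 of 67 (11.9%) and in 1.4% of all. The ATF4 motif TGATGNAA was in 0 of 67 against 3.97% of all promoters, and TATAAA was in 5 of 67 (7.46%) against 13.6%. ATF4 is the transcription factor whose translation the integrated stress response raises. These are counts of letters and not of bound sites.

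The libraries held 1662486 to 31998042 counts with a median of 6048524, and the 71 genes together held 3765 to 116465 counts. None of the 71 genes was at 0 in any library, and all 71 passed the low-count filter. The libraries with the plain tag and those with the iPKR construct stood apart in the cells they represent. Homeostatic microglial markers (16 genes, among them Csf1r) took 2.82 to 4.24% of the counts in the 4 groups without the construct and 0.0637 to 1.36% in the 3 groups with it. Neuronal markers (11 genes) took 0.0587 to 0.422% and 0.504 to 3.65%. The batch 1 libraries iPKR_ASV replicate 3 and 5xFAD_iPKR replicates 1 and 2 had the highest neuronal shares, at 2.35 to 3.65%. In 8 libraries the reads of 4 Y-linked genes did not match the labelled sex: 2 of Eif2A, 4 of iPKR_ASV and 2 of 5xFAD_iPKR. Both sets of libraries were left out in turn. Counts of Eif2s1 cannot check the Eif2s1A/A allele. They averaged 129 ± 8.68 CPM (counts relative to library size, scaled by the trimmed mean of M-values, TMM) in TRAP (SD, n = 5) and 145 ± 11 in Eif2A (SD, n = 4).

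In TRAP libraries the 71 mRNAs covered a wide range of levels per length. Divided by median mRNA length, the mean level was highest for Mrpl52 at 275 ± 30.6 CPM per kilobase (SD, n = 5), followed by Mrpl20 at 255 ± 30.9 and Mrpl42 at 242 ± 34.6. Those SDs overlap, so the order of the leading 3 is not resolved. Mrpl20, Mrpl42 and Mrpl47 are named here after their levels were seen. The lowest were Mrpl47 at 6.56 ± 0.672 and Mrps18a at 5.88 ± 1.67, and the median over the 71 genes was 44.9. The highest level was 46.8 times the lowest. Products of these genes are present once per mitochondrial ribosome, with few exceptions such as the stalk protein Mrpl12. The 3 genes related to the same bacterial small-subunit protein (Mrps18a, Mrps18b and Mrps18c) differed as well: Mrps18c was at 99.1 ± 13.9 CPM per kilobase, against 5.88 for Mrps18a.

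The mean level of the 71 genes, as the mean log2 CPM, fell into separate ranges by construct. It was 5.77 ± 0.0636 in TRAP (SD, n = 5), 5.73 ± 0.146 in 5xFAD_TRAP (n = 4), 6 ± 0.0988 in Eif2A (n = 4) and 5.98 ± 0.0346 in 5xFAD_Eif2A (n = 3). It was 5.06 ± 0.302 in iPKR_vehicle (n = 4), 5.02 ± 0.329 in iPKR_ASV (n = 5) and 4.98 ± 0.359 in 5xFAD_iPKR (n = 4). Every library without the construct (5.55 to 6.11) was above every library with it (4.59 to 5.43). As a share of all counts, which uses no scaling factor, the 71 genes took 0.413% ± 0.0137 in TRAP and 0.34% ± 0.0539 in iPKR_vehicle. On that scale the ranges met, since iPKR_ASV reached 0.441% and 5xFAD_TRAP went down to 0.335%. The TMM factors ranged from 0.777 to 0.976 without the construct and from 0.971 to 1.421 with it.

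**Figure D1:**
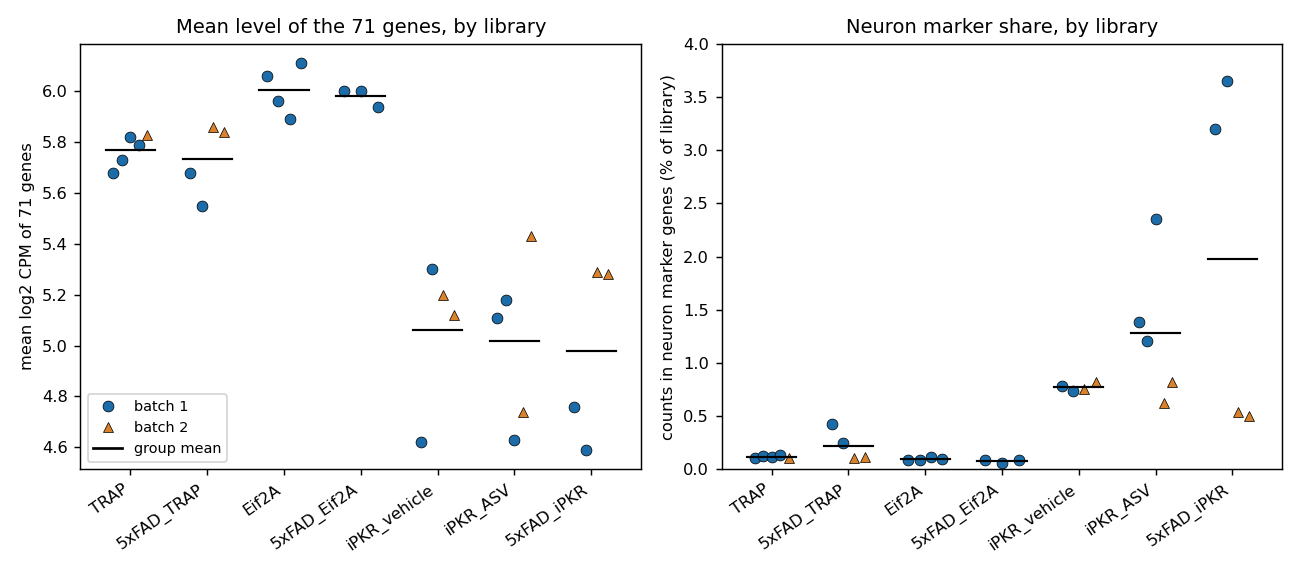
Mean log2 CPM of the 71 genes (left) and the share of counts in 11 neuronal marker genes (right, % of library) for each library, by group; circles are batch 1, triangles batch 2 and bars group means. All libraries of the 3 iPKR groups lie at or below 5.43 in mean level, and the libraries at 2.35 to 3.65% of neuronal counts are all circles.

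Between iPKR_vehicle and TRAP, mitochondrial ribosomal protein mRNAs were mostly lower in the sequenced libraries. Of the 71 genes, 38 fell and 1 rose at an adjusted p below 0.05 (edgeR's quasi-likelihood F-test with batch and sex in the model, Benjamini-Hochberg over 16074 genes). Over all genes, 25.4% fell and 28.6% rose, 54.1% in all. The median log2 fold change was -0.67 for the 71 genes and 0.17 for all genes, and 10 of the 71 values were above 0. In 36 of the 71 every iPKR_vehicle library was below every TRAP library, against 23.8% of all genes. With library totals in place of TMM scaling the split was 27 lower and 4 higher, with medians of -0.32 for the 71 genes and 0.5 for all genes, so the scaling itself moved the median of all genes. Homeostatic microglial markers were lower in 16 of 16 genes beside these changes, with a median fold change of -4.36 on the log2 scale, and neuronal markers were higher in 11 of 11, with a median of 2.68. In these bulk libraries fewer cells of a type and less RNA per cell cannot be told apart, and the part of the cell mixture in the change was not tested.

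The same contrast among 5xFAD mice, 5xFAD_iPKR against 5xFAD_TRAP, shares no library with the first and has VEGF with ASV on both sides. Here 38 of the 71 genes fell and 2 rose, against 23% and 25% of all genes. The median log2 fold change was -0.72, with 0.21 for all genes. Of the 38 genes lower in each comparison, 34 were in both (89.5% of each list). This overlap was not counted over all genes, so it cannot be read as particular to the 71. In 29 of the 71 every 5xFAD_iPKR library was below every 5xFAD_TRAP library, against 22.1% of all genes, and in 1 every library was above, against 19.9%. The count depended on which libraries entered. Without the 3 neuron-rich libraries 24 fell and 1 rose, and without the 8 libraries of doubtful sex label 27 fell and 1 rose. Both sets leave out 5xFAD_iPKR replicates 1 and 2, so only its batch 2 libraries remained and these are not separate checks. The share of all genes called in these fits is not given here. In batch 2 alone 19 fell and 0 rose, where 4395 of all genes were called in either direction. In batch 1 alone 39 fell and 3 rose, where 6430 were called. Library totals in place of TMM gave 20 lower and 6 higher, with medians of -0.37 for the 71 genes and 0.56 for all genes. Microglial markers were lower in 16 of 16 genes (median -2.84) and neuronal markers higher in 11 of 11 (median 2.38), and their part was again not tested.

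**Figure D2:**
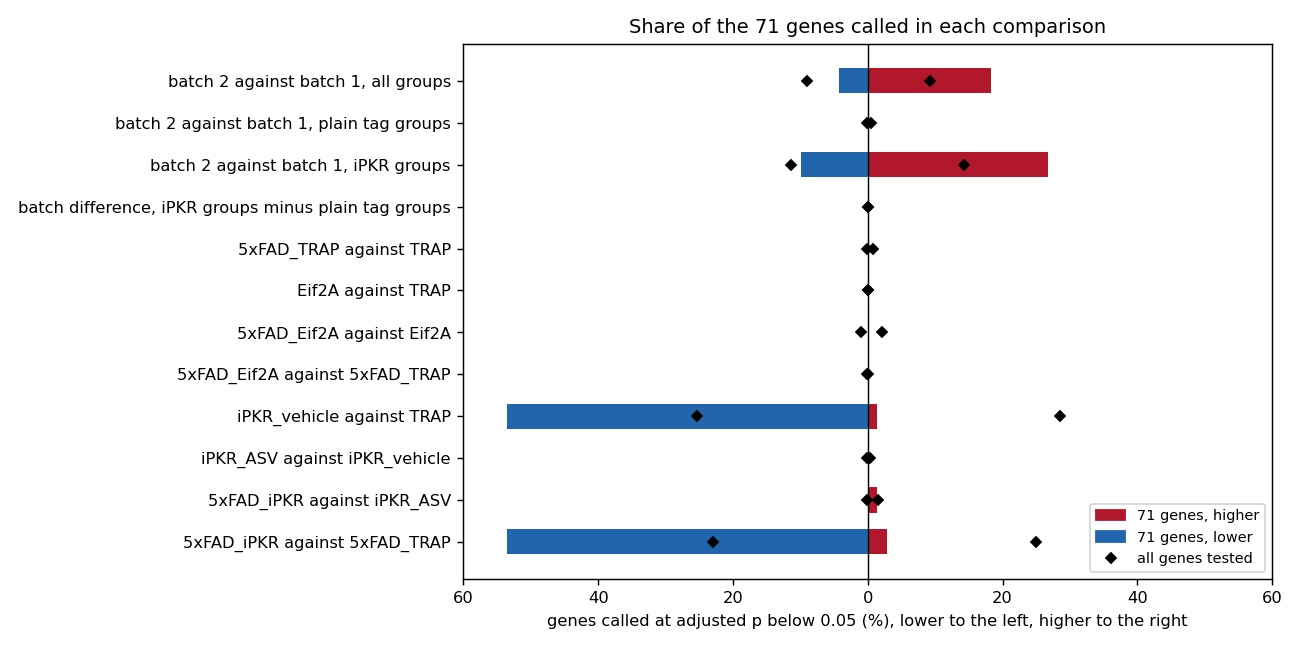
Percentage of the 71 genes called higher (red, right) or lower (blue, left) at adjusted p below 0.05 in each of the 12 comparisons, with diamonds for all 16074 genes tested. The 2 comparisons of iPKR with plain tag libraries show 53.5% of the 71 genes lower, beyond the diamonds, while their red bars are shorter than the diamonds.

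In both comparisons of iPKR with plain tag libraries, the single gene with the smallest p encodes a small-subunit protein. Mrps15 (chromosome 4, 126046925 to 126055532, GRCm38) encodes a core small-subunit protein with a bacterial counterpart. Its level was 160, 124, 138, 171 and 133 CPM in the TRAP libraries and 28.7, 34.2, 49.8 and 39.7 CPM in the iPKR_vehicle libraries. No library of either group came near the other group. The log2 fold change was -2.12 ± 0.22 (SE) with an adjusted p of 8.345e-09. In 5xFAD_TRAP the values were 138, 122, 137 and 153 CPM, and in 5xFAD_iPKR, batch 1 gave 37 and 34.9 CPM while batch 2 gave 67.6 and 69 CPM. The groups again did not overlap, with the batch 2 libraries nearer to the controls, and the log2 fold change was -1.41 ± 0.22 (adjusted p = 1.149e-05). Within the batches it was -1.84 in batch 1 and -1.18 in batch 2, and it was -1.14 without the 3 neuron-rich libraries. Mrps15 in iPKR_ASV, at 30.6 to 72 CPM, lay in the same low range.

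Mrps28, which encodes another small-subunit protein, spans 121773 bases of chromosome 3 (8802146 to 8923918) although its mRNA is only 783 bases. It was at 45.8, 45.9, 58.7, 46.3 and 48.7 CPM in TRAP and at 9.76, 19.1, 12.6 and 13.3 CPM in iPKR_vehicle. The highest iPKR_vehicle value was below the lowest TRAP value (log2 fold change -1.88 ± 0.27, adjusted p = 1.971e-06). The 5xFAD_TRAP libraries held 57.4, 53.7, 56.2 and 59.6 CPM and the 5xFAD_iPKR libraries 10.1, 5.92, 21.7 and 21.6 CPM. This was the smallest p among the 71 genes in that comparison, with a log2 fold change of -2.06 ± 0.3 (adjusted p = 3.865e-06). It was -1.59 without the 3 neuron-rich libraries (adjusted p = 0.000186). Mrps14, the member with the highest mean CPM and the product of a universally conserved ribosomal gene family, averaged 203 ± 20.1 CPM in TRAP (SD, n = 5) and 88.5 ± 11.9 in iPKR_vehicle (SD, n = 4). Its log2 fold change was -1.28 ± 0.22 there and -1.39 ± 0.23 among 5xFAD mice, both past the threshold. In all, 12 of the 26 small-subunit genes fell in iPKR_vehicle and 13 of 26 in 5xFAD_iPKR.

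Large-subunit genes moved in the same direction. Of 45, 26 fell and 0 rose in iPKR_vehicle (28 at an unadjusted p below 0.05), and 25 fell and 2 rose in 5xFAD_iPKR. Mrpl23, whose protein lies at the exit of the nascent chain, was at 62.5, 58, 71.6, 78.5 and 88.3 CPM in TRAP and at 7.53, 17.4, 17.4 and 16 CPM in iPKR_vehicle (log2 fold change -2.47 ± 0.31, adjusted p = 2.201e-07). The lowest of the 4 iPKR_vehicle values was from replicate 1. A pseudogene copy of Mrpl23 is also in the table, so its reads could be split between copies. Mrpl14, a protein at the interface of the subunits, was at 45.5, 42.7, 66.6, 48.6 and 54.2 CPM in TRAP and at 7.81, 17.1, 16.2 and 19 CPM in iPKR_vehicle. Its log2 fold change was -1.89 ± 0.27 (adjusted p = 1.764e-06), and its exons overlap those of Tmem63b on the other strand. Mrpl54, a protein found only in mitochondrial ribosomes, fell by 2.02 ± 0.32 on the log2 scale in 5xFAD_iPKR (adjusted p = 1.206e-05). It was at 48.1, 41.1, 59.1 and 66.8 CPM in 5xFAD_TRAP and at 12.1, 4.74, 25.2 and 21 CPM in 5xFAD_iPKR. The largest fold change of the 71 genes in both comparisons was that of Mrpl52, the gene with the shortest mRNA at 440 bases, at -2.74 ± 0.41 and -2.54 ± 0.44.

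**Figure D3:**
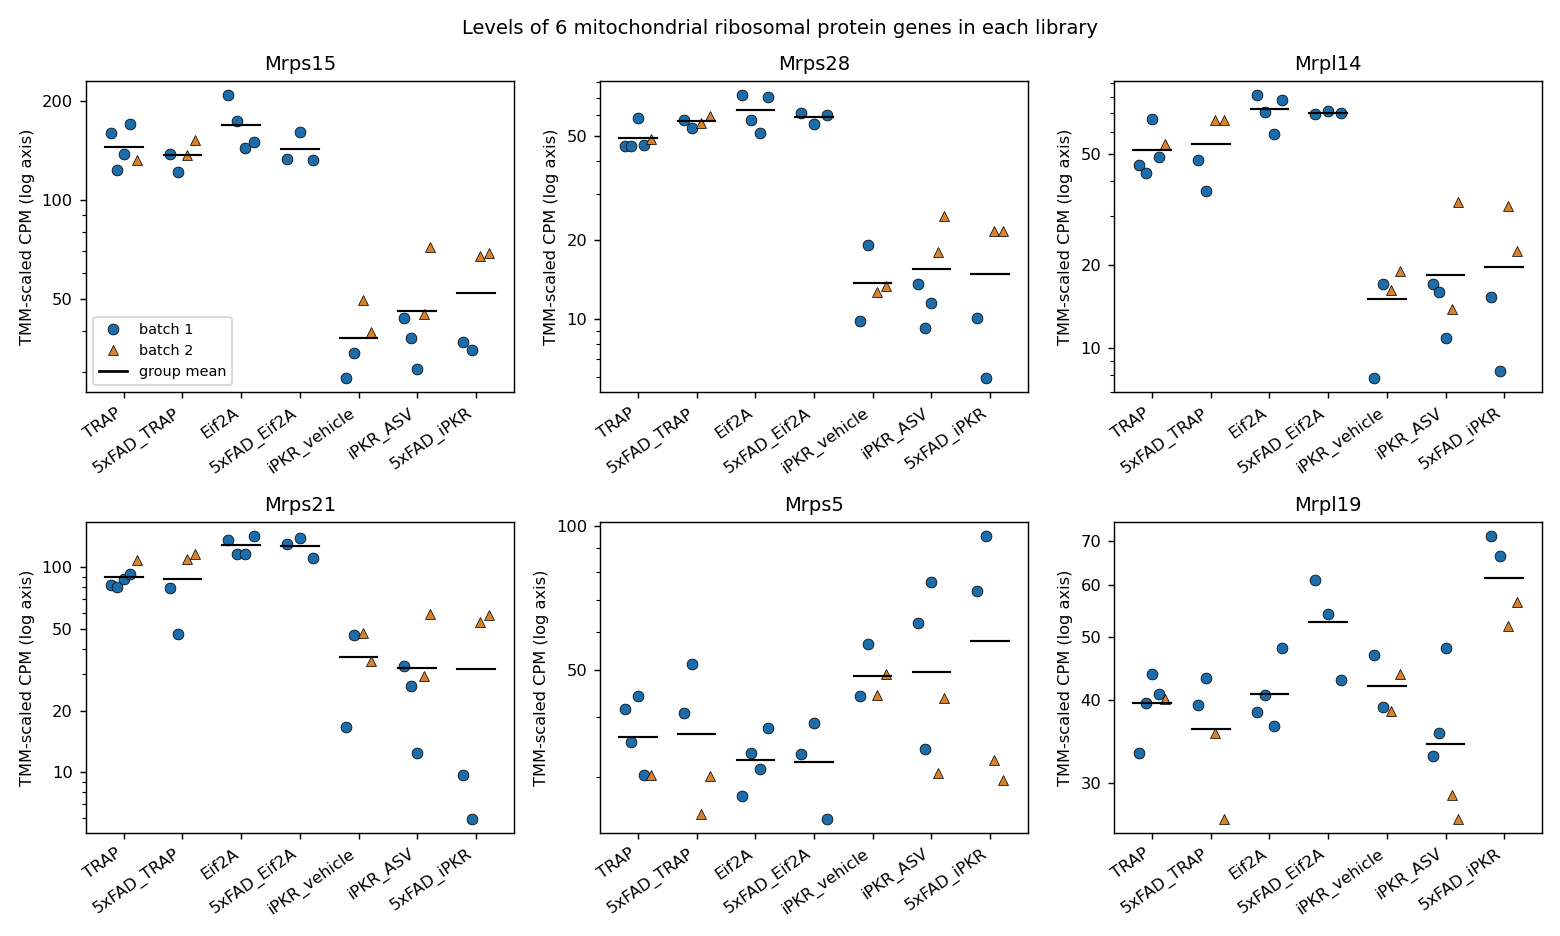
TMM-scaled CPM (log axis) of 6 genes in each of the 29 libraries by group; circles are batch 1, triangles batch 2 and bars group means. Mrps15, Mrps28 and Mrpl14 separate the iPKR groups from all others, Mrps21 in 5xFAD_iPKR splits into 5.92 and 9.66 CPM in batch 1 and 54.3 and 58.2 CPM in batch 2, and Mrps5 and Mrpl19 overlap between libraries with and without the construct.

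Mrps5, Mrpl19 and Mrpl1 went the other way. Mrps5, a core small-subunit protein, was the only gene of the 71 to rise in iPKR_vehicle against TRAP. It was at 41.5, 35.4, 44.2, 30.2 and 30.2 CPM in TRAP and at 44.1, 56.6, 44.4 and 49.1 CPM in iPKR_vehicle. The ranges touch, since the highest TRAP library passed the lowest iPKR_vehicle library. The log2 fold change was 0.69 ± 0.25 (adjusted p = 0.02358), and in batch 1 alone it was 0.4 ± 0.28 (adjusted p = 0.241). The call also did not hold in every fit that left out a single library, where its adjusted p went up to 0.0933. Mrpl19, a large-subunit protein at the interface of the subunits, rose in 5xFAD_iPKR against both 5xFAD_TRAP and iPKR_ASV. Its level was 71.2, 66.3, 51.9 and 56.4 CPM in 5xFAD_iPKR, 39.4, 43.3, 35.7 and 26.4 CPM in 5xFAD_TRAP and 32.9, 35.7, 48, 28.7 and 26.4 CPM in iPKR_ASV. Every 5xFAD_iPKR library was above all libraries of both other groups. The log2 fold changes were 0.65 ± 0.18 (adjusted p = 0.004953) and 0.8 ± 0.17 (adjusted p = 0.009231), 2 values that share the 5xFAD_iPKR libraries. Without the 3 neuron-rich libraries they were 0.61 ± 0.22 (adjusted p = 0.031) and 0.83 ± 0.22 (adjusted p = 0.0264). Against 5xFAD_TRAP the call was lost within each batch, at 0.59 ± 0.25 in batch 1 alone (adjusted p = 0.0702) and 0.67 ± 0.39 in batch 2 alone (adjusted p = 0.237). Its exons overlap those of Gcfc2 on the other strand. Mrpl1 rose by 0.75 ± 0.27 in 5xFAD_iPKR against 5xFAD_TRAP (adjusted p = 0.02453). Its levels were 78.9, 68.7, 25.4 and 51.8 CPM against 37.7, 36.2, 28 and 34.6 CPM, so the groups overlapped, and without the 3 neuron-rich libraries the log2 fold change was 0.56 ± 0.32 (adjusted p = 0.175).

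Related genes and genes of named roles were also read singly. Among the 3 genes related to the same bacterial small-subunit protein, Mrps18c fell by 1.14 ± 0.29 (adjusted p = 0.001369) and Mrps18b by 1.26 ± 0.35 (adjusted p = 0.003403) on the log2 scale in iPKR_vehicle against TRAP, and Mrps18a was at -0.23 ± 0.54 (adjusted p = 0.7343). Mrps18a had the lowest mean CPM of the 71 genes and ranged from 2.23 to 8.06 CPM in iPKR_vehicle, so a difference like those of its relatives was not resolved at this depth. Mrps18b overlaps Gm16279 on the other strand and Mrps18c overlaps Gm43511 on the same strand. Of the stalk genes, which recruit translation factors, Mrpl10 fell by 0.62 ± 0.21 (adjusted p = 0.01361), whereas Mrpl12 was at -0.32 ± 0.32 (adjusted p = 0.4068). Mrps30, a large-subunit protein despite its name, was at -0.24 ± 0.21 (adjusted p = 0.3524). Mrps36 fell by 0.9 ± 0.32 (adjusted p = 0.02137), and a pseudogene copy of it is in the table. Of genes listed with a bacterial counterpart, 16 of 26 large-subunit and 9 of 16 small-subunit genes fell in iPKR_vehicle. Of the 28 other genes, Mrps36 left out, 12 fell. These 28 include Mrps18a and Mrps18b, so they are not all mitochondria-specific. The difference between these shares was not tested.

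Other genes of mitochondrial translation were counted from lists of textbook members. Among 5 mitochondrial ribosome subunits without the Mrp name, 2 fell and 1 rose in iPKR_vehicle against TRAP. Chchd1, a small-subunit protein, fell by 1.79 ± 0.26 on the log2 scale (adjusted p = 1.654e-06), and Dap3, a GTP-binding small-subunit protein, rose by 0.96 ± 0.24 (adjusted p = 0.001421). Dap3 also rose in 5xFAD_iPKR, by 1.17 ± 0.26. Of 12 mitochondrial translation factors 1 rose (Gfm1, an elongation factor, 0.98 ± 0.37) and 0 fell, with 5 of 12 at an unadjusted p below 0.05. Of 18 genes of ribosome assembly and rRNA modification 6 fell and 1 rose, led by Malsu1 at -1.57 ± 0.28, a factor that keeps the large subunit from joining too early. Of 9 genes of mitochondrial transcription and mRNA stability 3 fell and 0 rose, beside 25.4% of all genes that fell, led by Slirp at -1.82 ± 0.34, which binds mitochondrial mRNAs. Tfam, Lonp1 and Hspd1 were at -0.31 ± 0.23, -0.13 ± 0.32 and 0.13 ± 0.31, and none of the 3 passed the threshold. Of the cytosolic ribosomal protein genes 72 of 79 fell, with a median of -1.65, beside the median of -0.67 over the 71 genes. Among nuclear-encoded oxidative phosphorylation genes 41 of 87 fell and 4 rose (median -0.54). Transcripts encoded in mitochondria, which are not bound by cytosolic ribosomes, went up in 7 of 12 genes (median 1.5, 0 lower). Atf4 itself was at -0.26 ± 0.26 (adjusted p = 0.4105).

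Within the iPKR mice, ASV made no called difference to the 71 genes. The comparison of iPKR_ASV with iPKR_vehicle called 0 of 71 by edgeR and by DESeq2, with 4 at an unadjusted p below 0.05, while 0.423% of all genes were called. The smallest p belonged to Mrps10, a small-subunit protein, at 20.4 ± 5.12 CPM in iPKR_ASV (SD, n = 5) and 30.5 ± 7.96 in iPKR_vehicle (SD, n = 4), a log2 fold change of -0.58 ± 0.23 (adjusted p = 0.2092). Without the libraries of doubtful sex label, which leaves 1 iPKR_ASV library, 0 of 71 were called. In 5xFAD_iPKR against iPKR_ASV the 1 gene called was Mrpl19, against 1.54% of all genes called higher and 1.72% called in either direction. That call was lost with library totals in place of TMM (adjusted p = 0.062), in a fit of those 2 groups alone (adjusted p = 0.638), without the 8 libraries of doubtful sex label, which leaves 1 iPKR_ASV library (adjusted p = 0.438), and in batch 2 alone (0.87 ± 0.4). The log2 fold change was between 0.66 and 0.87 in those fits.

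Among the groups without the iPKR construct, the models of all 29 libraries called 0 of the 71 genes in each comparison, by edgeR and by DESeq2. In 5xFAD_TRAP against TRAP, 1 of 71 had an unadjusted p below 0.05 and 0.79% of all genes were called (0.709% higher and 0.0809% lower). That gene was Mrpl9, a large-subunit protein, at 32 ± 5.39 CPM against 48.6 ± 6.52 (log2 fold change -0.51 ± 0.24, adjusted p = 0.4549). In Eif2A against TRAP 0 of all genes were called. Of the 71 log2 fold changes 60 were above 0, with a median of 0.31 against 0 for all genes. Cytosolic ribosomal protein genes were above 0 in 78 of 79 (median 0.7) and nuclear-encoded oxidative phosphorylation genes in 73 of 87 (median 0.49). In the 24 members of 440 to 941 bases the median was 0.45, beside 0.43 in other genes of those lengths. It was 0.18 beside 0.17 at 970 to 1634 bases, and 0.18 beside -0.08 at 1849 to 6073 bases. The part of RNA length in this shift was not tested. Mrps18c had the smallest p, with 108, 92.7, 86.8 and 97.8 CPM in Eif2A and 52, 57.6, 64.1, 67.7 and 74.8 CPM in TRAP. The groups did not overlap, and the log2 fold change was 0.73 ± 0.27 with an adjusted p of 0.866. In that comparison 8 of 71 had an unadjusted p below 0.05. All Eif2A libraries were from batch 1, and in batch 1 alone 0 of 71 were called as well, as without the libraries of doubtful sex label.

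Among 5xFAD mice the Eif2A background was compared in the same way. In 5xFAD_Eif2A against 5xFAD_TRAP, 60 of 71 fold changes were above 0 with a median of 0.34 (0.03 for all genes), 12 had an unadjusted p below 0.05, and 0.168% of all genes were called (0.0435% higher and 0.124% lower). Mrpl41, a mitochondria-specific large-subunit protein, had the smallest p, at 109, 107 and 122 CPM in 5xFAD_Eif2A and 70.8, 72.9, 87 and 75.7 CPM in 5xFAD_TRAP. The groups did not overlap, with a log2 fold change of 0.85 ± 0.29 (adjusted p = 0.2716). A fit of those 2 groups alone called 17 of the 71 genes, all higher, while it called 1095 of all genes. Without the libraries of doubtful sex label 1 of the 71 was called, and 176 of all genes. Beside this shift neuronal markers were above 0 in 0 of 11 genes (median -0.99, 1 called lower) and cytosolic ribosomal protein genes in 79 of 79 (median 0.91, 2 called higher). The 5xFAD_TRAP replicates 1 and 2 had the highest neuronal shares without the construct, at 0.422% and 0.244%, and the part of this in the shift was not tested. Only 5xFAD_TRAP had VEGF with ASV and batch 2 libraries, so genotype and treatment cannot be told apart here. In 5xFAD_Eif2A against Eif2A, 0 of 71 were called (2 at an unadjusted p below 0.05) against 3.1% of all genes (2.08% higher and 1.03% lower), and a fit of those 2 groups alone called 4 of the 71, 3 higher and 1 lower, and 1664 of all genes. Without the libraries of doubtful sex label 0 of 71 and 635 of all genes were called.

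The libraries were then compared between the labelled batches within groups. Over all groups, 13 of the 71 genes were higher and 3 lower in batch 2, against 9.19% and 8.96% of all genes. Within the iPKR groups 19 were higher and 7 lower, against 14.3% and 11.4% of all genes, with a median log2 fold change of 0.34 (0.18 for all genes). Within the plain tag groups 0 of 71 were called by edgeR and by DESeq2, with 4 at an unadjusted p below 0.05. Of all genes 0.535% were called (0.411% higher and 0.124% lower). The difference between these batch effects was tested directly. It called 0 of 71 genes and 0.0311% of all genes (0.0187% higher and 0.0124% lower), with 4 of 71 at an unadjusted p below 0.05, so the batch difference was not shown to differ between iPKR and plain tag groups. The sign was the same in 60 of the 71 genes and in 24 of the 26 called in the iPKR groups, with no library shared. Equal signs were not counted over all genes, so this cannot be read as particular to the 71. In the 24 members of 440 to 941 bases the median log2 fold change was 0.26 in plain tag and 0.62 in iPKR groups. In 788 other genes of those lengths it was 0.29 and 0.76. Members of 970 to 1634 bases had medians of 0.18 and 0.29, beside 0.05 and 0.32 in other genes. Members of 1849 to 6073 bases had 0.02 and -0.13, beside -0.12 and 0.01. The plain tag contrast held only 3 batch 2 libraries. Scaled by library totals, the split was 36 higher and 2 lower in the iPKR groups, where the median of all genes moved from 0.18 to 0.4, and 20 and 1 over all groups, where it moved from 0.15 to 0.3.

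Mrps21, a small-subunit protein with a bacterial counterpart, had the smallest p between batches in the iPKR groups. In 5xFAD_iPKR it was at 9.66 and 5.92 CPM in batch 1 and at 54.3 and 58.2 CPM in batch 2. In iPKR_ASV it was at 32.9, 26.4 and 12.4 CPM in batch 1 and at 29.4 and 59.4 CPM in batch 2, and in iPKR_vehicle at 16.7 and 46.6 CPM and at 47.5 and 34.7 CPM. The batches separated in 5xFAD_iPKR and overlapped in the other 2 iPKR groups. The log2 fold change of batch 2 over batch 1 was 1.34 ± 0.25 (adjusted p = 0.0005795). Mrps15, Mrpl52 and Mrpl41 followed, at 0.7 ± 0.15, 1.19 ± 0.27 and 0.86 ± 0.2. Mrpl23 and Mrps16 were among the genes with the smallest p over all groups, at 0.75 ± 0.22 and 0.52 ± 0.15. In the other direction Mrpl3, a core large-subunit protein, was lower in batch 2 of the iPKR groups, at -0.54 ± 0.13 (adjusted p = 0.003672), as were Mrps5 (-0.79 ± 0.19), Mrps31 (-0.91 ± 0.23) and Mrpl45 (-0.52 ± 0.17), a protein that tethers the ribosome to the inner membrane.

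These batch calls rested on few libraries. Without iPKR_ASV replicate 3 and 5xFAD_iPKR replicates 1 and 2, 0 of the 71 genes were called in the iPKR groups (7 at an unadjusted p below 0.05) and 0 over all groups (6 at an unadjusted p below 0.05). That fit has no batch 1 library of 5xFAD_iPKR and compares the batches in iPKR_vehicle and iPKR_ASV only. The median over the 71 genes was then -0.03 in place of 0.34, and 705 of all genes were still called in the iPKR groups. The 8 libraries of doubtful sex label include those 3, and without them 0 were called in either contrast, where 216 of all genes were called in the iPKR groups and 272 over all groups, with the iPKR batch contrast resting on iPKR_vehicle alone. Single libraries also moved the count over all groups: 2 genes were called without iPKR_ASV replicate 3 or without 5xFAD_iPKR replicate 1, 8 without iPKR_ASV replicate 5, 9 without 5xFAD_iPKR replicate 4, 10 without 5xFAD_TRAP replicate 2, and 25 without iPKR_vehicle replicate 2 or without iPKR_ASV replicate 4. Within the iPKR groups, leaving out iPKR_vehicle replicate 3 gave 15, leaving out 5xFAD_iPKR replicate 2 gave 16 and leaving out iPKR_ASV replicate 3 gave 17, in place of 26. All genes called without single libraries are not given here, so these counts cannot be read as particular to the 71. By group, the mean log2 CPM of the 71 genes in batch 2 minus batch 1 was 0.61 in 5xFAD_iPKR, 0.11 in iPKR_ASV, 0.2 in iPKR_vehicle, 0.23 in 5xFAD_TRAP and 0.08 in TRAP, where batch 2 is a single library.

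**Figure D4:**
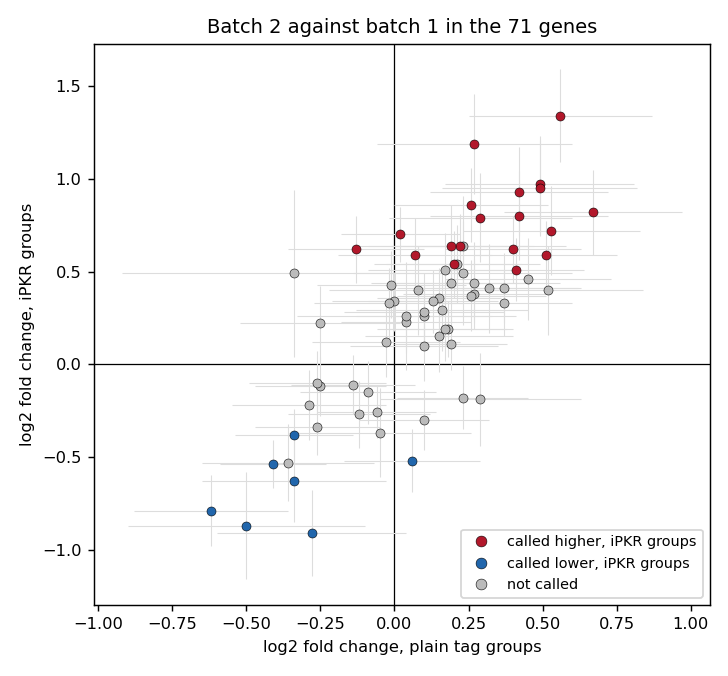
Log2 fold change of batch 2 over batch 1 for each of the 71 genes in the plain tag groups (horizontal axis) and in the iPKR groups (vertical axis), with SE bars; red and blue mark genes called in the iPKR groups. Points of the same sign on both axes number 60 of 71, and the spread is wider along the vertical axis.

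Beside the batch difference in the iPKR groups, cell markers and RNA classes moved too. Neuronal markers took 1.9% ± 1.18 of counts in batch 1 (SD, n = 7) and 0.678% ± 0.14 in batch 2 (SD, n = 6), with 8 of 11 genes called lower in batch 2. Microglial markers took 0.243% ± 0.152 and 0.722% ± 0.483, with 10 of 16 called higher. Csf1r and Rbfox3, defining markers of microglia and of neurons, were at 0.09 ± 0.21 and 0.08 ± 0.16 and were not called. Transcripts encoded in mitochondria took 0.0697% ± 0.0434 and 0.381% ± 0.178, with 10 of 12 called higher and a median log2 fold change of 2.4. Cytosolic ribosomal protein genes were higher in 69 of 79 (median 1.11). Of the other mitochondrial ribosome subunits, Ptcd3 and Dap3 were lower in batch 2 at -1.47 ± 0.22 and -0.88 ± 0.15, and Chchd1 was higher at 0.58 ± 0.21. The part of these differences in the batch result was not tested.

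The size and the direction of the changes varied with mRNA length among the 71 genes. Their mRNAs were short, with a median of 1230 bases against 2779 for all genes tested that have a length. In the shortest 24 genes (440 to 941 bases) 18 fell in iPKR_vehicle against TRAP and 15 rose in batch 2 of the iPKR groups. In the longest 24 (1849 to 6073 bases) 10 fell and 1 rose in iPKR_vehicle, and 5 fell and 1 rose in batch 2. Other genes of those lengths gave the following background. Of 788 other genes of 440 to 941 bases, 53.2% fell in iPKR_vehicle and 42.6% rose in batch 2, and of 8895 other genes of 1849 to 6073 bases, 23.1% fell and 32.8% rose in iPKR_vehicle, and 15.9% fell and 10.5% rose in batch 2. The median log2 fold change of the short group in iPKR_vehicle was -1.16 for the mitochondrial ribosomal protein genes and -0.94 for the other genes. For the long group it was -0.33 and 0.31. In the middle 23 genes (970 to 1634 bases) 10 fell and 0 rose in iPKR_vehicle, with a median of -0.46. Of 1928 other genes of those lengths 38.5% fell and 20.7% rose, with a median of -0.41. In batch 2 of the iPKR groups 3 of the middle genes rose and 2 fell, beside 17.8% and 5.71% of the others. Across the 71 genes Spearman's rho between length and log2 fold change was 0.49 in iPKR_vehicle against TRAP, 0.57 in 5xFAD_iPKR against 5xFAD_TRAP and -0.73 in the iPKR batch contrast (Pearson's r 0.53, 0.56 and -0.67). Over 13783 genes it was 0.23, 0.27 and -0.16. In Eif2A against TRAP, where no gene was called, rho was -0.57 across the 71 genes and -0.28 over the 13783 genes. These are correlations across genes that share the same libraries, not independent replicates, and the part of RNA length in the results was not tested.

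**Figure D5:**
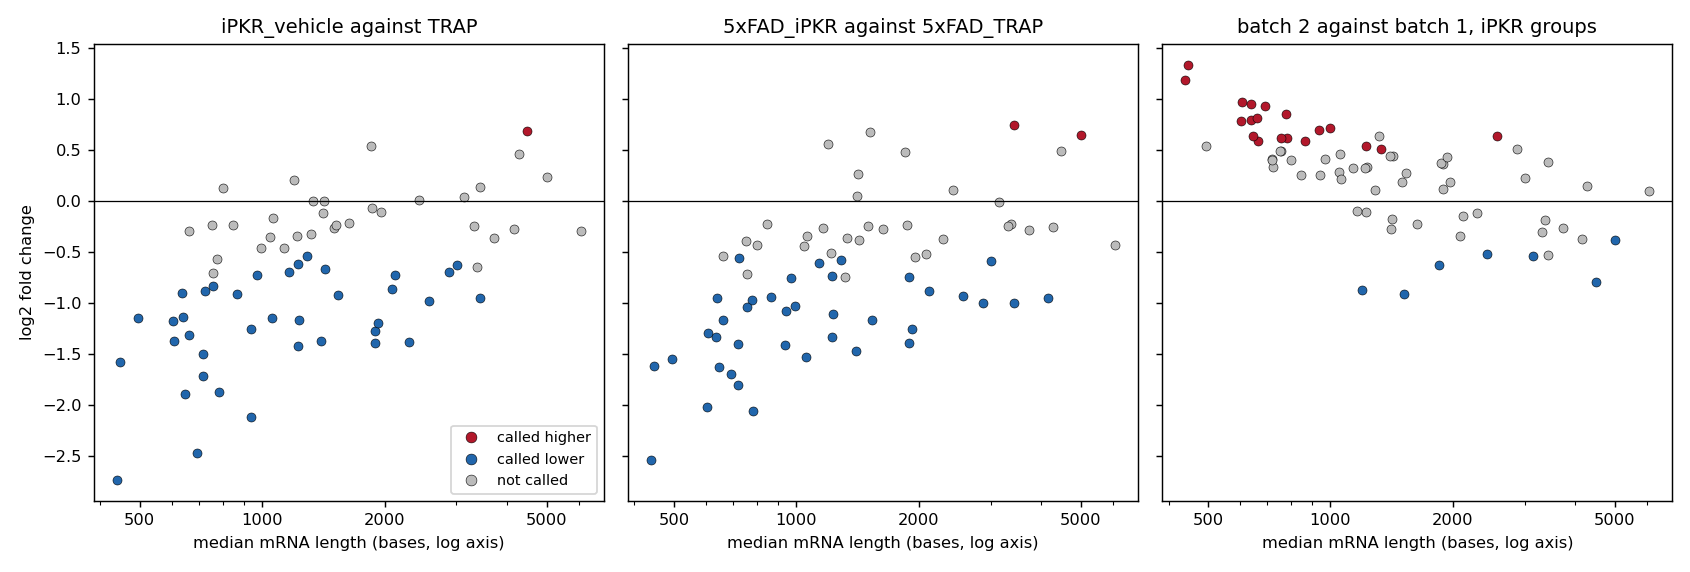
Log2 fold change of each of the 71 genes against its median mRNA length (bases, log axis) in 3 comparisons; red and blue mark genes called higher and lower. Short mRNAs lie lowest in both comparisons with plain tag libraries and highest in batch 2 of the iPKR groups.

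Promoter motifs were counted in the called and uncalled genes. Among genes with a promoter sequence, the ETS motif was in 13 of 33 that fell in iPKR_vehicle (39.4%) and in 9 of 29 not called (31%). The NRF1 motif was in 6 of 33 (18.2%) and 6 of 29 (20.7%), and the YY1 motif in 3 of 33 (9.09%) and 5 of 29 (17.2%). The ETS motif was in 7 of 16 genes higher in batch 2 of the iPKR groups (43.8%) and in 12 of 41 not called (29.3%). No test was made of these shares. The Mrps21 sequence carries an NRF1 match and the Mrps15 sequence carries none. Both genes were lower in iPKR_vehicle than in TRAP and higher in batch 2 of the iPKR groups. The part of the motifs in these changes was not tested.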

How the data were processed

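mRNA bound to GFP-tagged ribosomes was sequenced from cortex in 29 libraries. The values are raw counts per gene symbol, deposited by the authors. Trim Galore, HISAT2 2.2.1, featureCounts 2.0.3 and mm10 are named, per the submitters' processing notes; whether counting used strand is not given in the sources used here. Library totals, 1662486 to 31998042 counts, limit the precision of low genes.

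Groups, batch and sex were taken from the labels. Genes were filtered with filterByExpr (minimum count 10, minimum total 15), leaving 16074, and scaled by TMM. Comparisons of groups used edgeR 4.0.16 quasi-likelihood F-tests (R 4.3.3) with group, batch and sex (20 residual degrees of freedom). Batch contrasts used group-by-batch cells and sex (16 residual degrees of freedom). P-values were adjusted by Benjamini-Hochberg over all genes, with a threshold of 0.05. DESeq2 1.42.0, other scalings, filters, models and sets of libraries were alternatives. The script was tested on simulated counts. Lengths and positions came from GENCODE M21 (GRCm38).

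The members and gene lists were chosen with earlier results of these data known. In each comparison the genes named were up to 4 per direction with the smallest p among those past the threshold, or the 1 with the smallest p where none passed. Mrps18a, Mrps18b, Mrps18c, Mrpl10, Mrpl12, Mrps30, Mrps36 and the genes of highest and lowest mean CPM were always named, and of other lists up to 3 called genes. The deposited RPKM values were not used.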

Additional observations from a re-analysis of the deposited data

Results flagged for a closer look

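In groups of 4 or 5 libraries, the highest or lowest value was compared with the rest by its gap over the whole range of the group (Dixon's criterion at 95%). Of 162 sets of values, 9 had a library set apart, and chance gives about 1 in 20. All values are TMM-scaled CPM unless stated.

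In TRAP, replicate 3 was highest for Mrps14 at 239 CPM (others 190 to 199) and for Mrps28 at 58.7 CPM (others 45.8 to 48.7). In 5xFAD_TRAP, replicate 2 held Mrpl9 at 40 CPM (others 28.7 to 30). In iPKR_ASV, replicate 5 was highest for Mrpl14 at 33.5 CPM (others 10.9 to 17.1) and for Mrpl54 at 35.5 CPM (others 10.3 to 14.7). This library also had the highest share of microglial marker counts of its group, at 0.73%. Replicate 3 of iPKR_ASV, a library rich in neuronal markers at 2.35%, held Mrps31 at 76 CPM (others 25.4 to 32.5). The part of the cell mixture in these values was not tested.

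In iPKR_vehicle, replicate 1 was lowest for Mrpl23 at 7.53 CPM (others 16 to 17.4) and in the share of all counts taken by the 71 genes, at 0.259% (95% Wilson interval 0.253 to 0.265%, counting error only; others 0.362 to 0.373%). Replicate 2 held Mrps18a, a gene with few counts, at 8.06 CPM (others 2.23 to 2.94).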

How the results depend on the processing

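The iPKR libraries differ from the others in cell markers, and Mrps18a has few counts. Sex taken from Y-linked reads, leaving out the 8 libraries of doubtful sex label and library totals were alternatives chosen after seeing the data. Each named gene of a comparison was set against every alternative fit, those without single libraries included. Of these refits of the same genes, 1185 kept direction and side of the threshold, 120 lost the call, 14 gained it and 26 changed sign. Genes uncalled in both fits count among the 1185, so it is not a number of separate stable genes. The cause of these changes was not tested. Called genes of the 71 were 16 between batches over all groups, and 0 with a replicate block, 0 without the 3 neuron-rich libraries, 0 without the 8 libraries and 28 by DESeq2. In the iPKR groups the 26 became 3 with a replicate block and 0 in both reduced sets. Over all genes 2919 were called between batches over all groups, 68 with the block, 506 without the 3 libraries and 4043 by DESeq2. For the iPKR groups the all-gene count was 4132, with 1889 under the block and 705 without the 3 libraries. Replicates 1 and 2 were all batch 1 and replicate 5 all batch 2, so the block takes up part of the batch contrast in every gene. In 5xFAD_Eif2A against Eif2A a fit of the 2 groups alone gave 4 in place of 0, and 1664 of all genes in place of 499. In 5xFAD_Eif2A against 5xFAD_TRAP it gave 17 in place of 0, and leaving out the 8 libraries gave 1. In 5xFAD_iPKR against iPKR_ASV the 1 call became 0 with library totals, 0 with a replicate block, 0 without the 8 libraries, 3 in batch 1 alone, 0 in batch 2 alone and 0 with the 2 groups alone. In 5xFAD_iPKR against 5xFAD_TRAP the 40 became 26 with library totals, 25 without the 3 libraries and 19 in batch 2 alone. The all-gene counts of these 5xFAD_iPKR fits are not listed here, so their drops cannot be read as particular to the 71.

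Leaving out each library in turn gave 2 to 25 called genes between batches over all groups, 15 to 38 in the iPKR groups, 34 to 42 in iPKR_vehicle against TRAP, 34 to 43 in 5xFAD_iPKR against 5xFAD_TRAP, 1 to 2 in 5xFAD_iPKR against iPKR_ASV and 0 in the other comparisons. Calls held in every such fit for 2 of 16, 12 of 26, 32 of 39, 31 of 40 and 1 of 1 genes. All genes called in those fits are not given here. Equal replicate numbers did not pair libraries: the median correlation of deviations was -0.02 over 79 pairs of the same number and 0.01 over others, and 3 of 29 libraries matched best with their own number.

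The sign changed in the iPKR batch contrast for Mrpl10 with library totals (0.11) and without 5xFAD_iPKR replicate 1 (0.02), and for Mrps18b without iPKR_vehicle replicate 3 (-0.21, the lowest with a library left out, up to 0.45 without 5xFAD_iPKR replicate 2). Without the 3 libraries it changed for Mrps31 (0.13), Mrps18a (-0.47), Mrps18b (-0.2), Mrpl12 (-0.1) and Mrps14 (-0.07). Without the 8 it changed for Mrpl52 (-0.22), Mrpl3 (0.16), Mrps31 (0.16), Mrps18a (-1.12), Mrps18b (-0.17), Mrps30 (0.27) and Mrps14 (-0.2). In iPKR_vehicle against TRAP it changed with library totals for Mrps18a (0.09), Mrpl12 (0.01) and Mrps30 (0.1), and for Mrps18a without the 8 (0.03), in batch 1 alone (0.08) and with the 2 groups alone (0.11). In 5xFAD_iPKR against 5xFAD_TRAP it changed for Mrps30 with library totals (0.11) and in batch 1 alone (0.04), and for Mrps18a without the 3 (0.23), without the 8 (0.34) and in batch 2 alone (0.31).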
